A study of Mus musculus with 50 samples.

Results

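The 9 genes described here are 6 genes of the Polycomb system and 3 genes that overlap one of them on the other DNA strand, followed across RNA libraries of wild type and NSD1-/- mouse embryonic stem (ES) cells. The Polycomb genes are Suz12, Ezh2, Ezh1, Eed, Jarid2 and L3mbtl2. Their opposite partners are Gm16706 (opposite Suz12), Gm17629 (opposite Ezh2) and Chadl (opposite L3mbtl2). All 9 were found by symbol among the 37310 genes of the count tables, and 7 of the 9 held enough counts to be tested. They were chosen by the log2 fold changes of Gm16706, Gm17629 and L3mbtl2 between the knockout lines and wild type in an earlier pass over these tables, so their own values are given as a description, with no test of their own. The cells are J1, an established ES cell line of strain 129S4/SvJae, untreated and cultured on gelatin in serum-containing medium with leukemia inhibitory factor. The groups are wild type and the NSD1-/- lines KO1 and KO2, with 2 libraries each, and both lines are compared with the same 2 wild type libraries. Nothing in the labels tells how KO1 and KO2 were derived, whether each is 1 clone, or whether replicate libraries stem from different cultures, so each p-value reflects only how far these libraries scatter, and that scatter may be technical.

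Polycomb repressive complex 2 (PRC2) places methyl groups on lysine 27 of histone H3, and its product H3K27me3 marks silent developmental genes in ES cells. SUZ12 holds the complex together, EZH2 or its relative EZH1 carries the catalytic site, EED binds H3K27me3 and stimulates the enzyme, and JARID2 is an accessory subunit that helps to recruit it. L3MBTL2 belongs to a variant of the second complex, PRC1. NSD1, the enzyme missing from the knockout lines, places H3K36me2, a mark known to hinder PRC2 on the same histone tail.

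The tables were counted with a strand setting that keeps a fragment when its first read has the orientation of the gene. Abundant genes held few of them (Actb 104 to 144 and the ES cell factor Pou5f1 14 to 23 per library), while Gm16706, Gm17629 and Chadl held 818 to 2796, so each gene's count was taken to report RNA from the other strand. The labels name no strand-marking kit, so this is a reading of the counts and not a stated fact. On that reading Gm16706 reports Suz12, Gm17629 reports Ezh2 and Chadl reports L3mbtl2. Counts listed under Suz12, Ezh2 and L3mbtl2 lie on the strand of their partners. Nsd1 held 21 and 25 counts (wild type), 55 and 38 (KO1) and 27 and 21 (KO2), on the strand that does not check its loss. Total counts per library were 1150089 to 1285487, of which the ribosomal RNA locus AY036118 held 32.3% to 37.2%. Of the 10 ES cell markers, Klf4 (133 to 174 counts) and Sox2 (66 to 100) held the most under their own symbol. Nanog held 1 to 14 and Tdgf1 1 to 4. Under this reading these counts lie on the strand that does not report the marker. Only Lin28a has a counted gene opposite, Gm13061, which held 362 to 515. Levels are given in CPM, counts scaled to 1e6 of the effective library size. Summed over the 10 ES cell markers by own symbol, they ran from 288 to 315 CPM for wild type, 285 to 309 for KO1 and 303 to 319 for KO2. Gm13061 stood at 428 to 451, 304 to 324 and 307 to 372 CPM in that order. Under their own symbols, the endoderm markers Gata6, Sox17, Afp and Foxa2 were at 0 in every library and Gata4 at 0 to 1. The fibroblast markers Col1a2, Col3a1 and Thy1 were at 0 too, while Col1a1 and Twist1 held 0 to 2, Acta2 0 to 1 and Fn1 26 to 46. All these counts lie on the strand that does not report the markers under this reading. Of the endoderm markers, only Gata6 has a counted gene opposite, 1010001N08Rik, at 0 in every library. Of the 7 fibroblast markers, 2 have a counted gene opposite. Gm17329, opposite the collagen gene Col1a1, held 78 and 94 counts (wild type), 4 and 3 (KO1) and 4 and 1 (KO2), so this marker's strand was near 0 in all 4 knockout libraries and not in wild type. Apol7d, opposite Fn1, held 1311 to 1528 with overlapping groups. The neuroectoderm marker Pax6 held 159 to 215 under its own symbol, on the strand that does not report it under this reading. Elp4, opposite Pax6, held 0 to 1. The neuroectoderm marker Nes held 0 to 3 under its own symbol. Gm17329 thus moves with the groups of every comparison with wild type given here, and its part, or that of other cells, in the results was not tested. In bulk RNA, fewer cells of a type and less RNA per cell cannot be told apart.

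Exons at which spliced Suz12 and L3mbtl2 transcripts can enter the counts of the gene opposite are shown here, to let the overlap be seen. Gm16706 (chromosome 11, 79830856 to 79843370, minus strand, mm9) is a long noncoding RNA gene wholly inside Suz12 (79806608 to 79847625, plus strand). Of its 3579 exonic bases, 178 lie opposite a Suz12 exon and the rest opposite Suz12 introns. Those 178 bases are exon 10 of the 16 exons of Suz12, all of it coding. Gm17629 (chromosome 6, 47496665 to 47501703, plus strand), also a long noncoding RNA gene, lies inside Ezh2 (47480273 to 47545340, minus strand). Of its 2538 exonic bases, 174 lie opposite Ezh2 exons. Chadl (chromosome 15, 81508726 to 81527717, minus strand), which encodes a leucine-rich repeat protein of the extracellular matrix, overlaps the 3′ part of L3mbtl2 (81494319 to 81518745, plus strand). The 2 genes share 1023 exonic bases, 20.6% of Chadl, and exons 10, 11 and 16 of the 17 exons of L3mbtl2 lie wholly within them, of which the first 2 are shown. The reference sequences of the Suz12 exon and the L3mbtl2 exons (genome build NCBIM37, the same as mm9) are printed on the strand of the Polycomb gene, with the exon in capitals and 15 bases of intron on each side in lower case.
Suz12 exon 10 (chr11:79835579-79835786, plus strand): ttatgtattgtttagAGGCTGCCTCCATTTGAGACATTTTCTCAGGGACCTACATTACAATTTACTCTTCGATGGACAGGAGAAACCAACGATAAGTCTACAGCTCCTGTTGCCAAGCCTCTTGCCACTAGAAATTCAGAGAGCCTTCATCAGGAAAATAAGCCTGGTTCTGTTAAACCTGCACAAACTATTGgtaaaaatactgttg
L3mbtl2 exon 10 (chr15:81512986-81513092, plus strand): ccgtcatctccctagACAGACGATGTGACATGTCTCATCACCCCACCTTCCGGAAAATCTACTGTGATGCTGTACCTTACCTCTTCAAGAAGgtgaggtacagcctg
L3mbtl2 exon 11 (chr15:81513368-81513502, plus strand): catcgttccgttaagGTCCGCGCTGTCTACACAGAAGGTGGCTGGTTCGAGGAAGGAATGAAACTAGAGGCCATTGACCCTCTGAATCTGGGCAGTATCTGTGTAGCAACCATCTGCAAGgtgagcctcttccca
Each exon shown is bounded by ag before it and gt after it, the usual letters of a splice site, on the strand of the Polycomb gene. G and C made up 43.8% of the Suz12 exon, and 46.8% and 52.4% of the L3mbtl2 exons. Because most exonic bases of Gm16706 and Gm17629 face introns, fragments of unspliced Suz12 or Ezh2 RNA would be counted along with spliced ones, and the tables do not separate them.

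**Figure D1:**
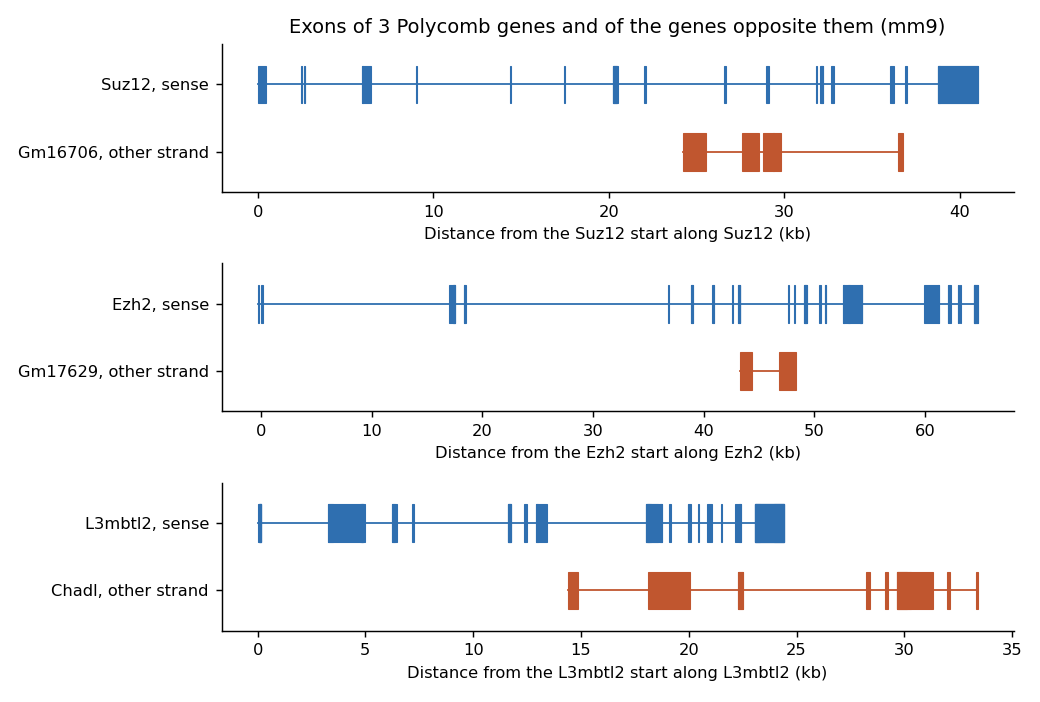
Exons (boxes) of Suz12, Ezh2 and L3mbtl2 (blue) and of the genes opposite them (orange), along the distance in kb from the start of the Polycomb gene. Gm16706 and Gm17629 lie inside their hosts and touch few host exons, whereas Chadl overlaps the last part of L3mbtl2.

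Fragments at Gm16706, read as Suz12, were higher in all 4 knockout libraries than in wild type, and more so in KO2. Gm16706 held 1461 and 1408 counts for wild type, 1939 and 1837 for KO1 and 2419 and 2796 for KO2. Scaled to the effective library size, wild type stood at 1238 ± 57.5 CPM (mean ± SD, n = 2), KO1 at 1554 ± 19.5 and KO2 at 2231 ± 106. The 3 groups did not overlap. The log2 fold change over wild type was 0.33 ± 0.06 (± SE of the fit) in KO1 and 0.85 ± 0.05 in KO2, or 1.26-fold and 1.80-fold. The line KO1 lay below KO2 by a log2 difference of -0.52 ± 0.05.

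Suz12 itself, counted on the strand of Gm16706, held 8 and 6 counts (wild type), 10 and 9 (KO1) and 14 and 13 (KO2). These few counts stand in the same order of groups as those of Gm16706. Suz12 made up 0.484 ± 0.0850% (SD, n = 2) of the counts of the pair for wild type, 0.500 ± 0.0181% for KO1 and 0.519 ± 0.0796% for KO2. Its share of the pair thus hardly changed, and whether its counts come from a separate RNA was not tested. The log2 fold changes of Suz12 were 0.37 ± 0.50 in KO1 and 0.93 ± 0.47 in KO2. Neither was called. The KO1 value ran from 0.16 without wild type replicate 2 to 0.60 without wild type replicate 1, and the KO2 value was 0.53 with each chromosome scaled on its own.

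Fragments at Gm17629, read as Ezh2, the main H3K27 methyltransferase of dividing cells, were lowest in KO1. Gm17629 held 1250 and 1156 counts for wild type, 846 and 818 for KO1 and 1004 and 1176 for KO2. In CPM, wild type stood at 1094 and 983, KO1 at 684 and 686, and KO2 at 895 and 970. Both KO1 libraries lay below all others, and both KO2 libraries lay below wild type, the higher of them at 970 against 983. The log2 fold change was -0.60 ± 0.07 in KO1 and -0.15 ± 0.06 in KO2, or 0.660-fold and 0.899-fold. Ezh2 itself had 10 and 10 counts (wild type), 2 and 3 (KO1) and 9 and 7 (KO2), too few to be tested. There too the KO1 libraries were the lowest. Ezh2 made up 0.826 ± 0.0452% (SD, n = 2) of the counts of its pair for wild type, 0.301 ± 0.0916% for KO1 and 0.740 ± 0.210% for KO2. Whether the counts of Ezh2 come from a separate RNA was not tested.

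Because the fragments of both PRC2 genes come from the same library, their ratio does not depend on how libraries are scaled. The number of Gm16706 counts per Gm17629 count was 1.17 and 1.22 for wild type, 2.29 and 2.25 for KO1, and 2.41 and 2.38 for KO2. The mean was 1.19 ± 0.0348 (SD, n = 2) for wild type, 2.27 ± 0.0327 for KO1 and 2.39 ± 0.0225 for KO2. Both genes were chosen for these changes and lie on chromosomes that shifted in 1 line each (0.41 for chromosome 11 in KO2 and -0.42 for chromosome 6 in KO1, on the log2 scale), so the ratio restates their values on 1 scale and adds no evidence. Chadl gives a further within-library scale, although Chadl itself stood at -0.13 in KO1 and 0.16 in KO2. Per Chadl count, Gm16706 stood at 0.752 ± 0.0258 for wild type, 1.03 ± 0.00825 for KO1 and 1.21 ± 0.117 for KO2, while Gm17629 stood at 0.631 ± 0.0400, 0.456 ± 0.00294 and 0.507 ± 0.0537.

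The remaining PRC2 members have no annotated exon opposite, so their counts come from a strand on which nothing is annotated. Ezh1 (chromosome 11, 101052429 to 101087777, minus strand), the EZH2 relative of non-dividing cells, held 0 to 4 counts per library and was not tested. Eed (chromosome 7, 97103166 to 97129493, minus strand) held 18 and 14 counts for wild type, 5 and 22 for KO1 and 9 and 9 for KO2. The KO1 libraries of Eed lay on either side of all the others, and without KO1 replicate 1 the log2 fold change in KO1 turned from -0.31 ± 0.46 to 0.43, and without KO1 replicate 2 it was -1.76. In KO2 it was -0.83 ± 0.50 and was not called. Jarid2 (chromosome 13, 44824843 to 45017012, plus strand) held 25 and 22 counts (wild type), 38 and 37 (KO1) and 39 and 35 (KO2). All 4 knockout libraries of Jarid2 stood above both wild type libraries, with log2 fold changes of 0.60 ± 0.27 in KO1 and 0.64 ± 0.27 in KO2. Jarid2 was called in neither line and not in the lines together (0.62 ± 0.24).

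At the L3mbtl2 and Chadl pair, the 2 strands moved differently. Chadl, read as L3mbtl2, held 1896 and 1918 counts for wild type, 1863 and 1785 for KO1 and 2142 and 2159 for KO2. In CPM, wild type had 1659 and 1631, KO1 1506 and 1497, and KO2 1909 and 1780, so the groups did not overlap but lay close, with KO1 lowest and KO2 highest. The log2 fold change of Chadl was -0.13 ± 0.05 in KO1, 0.16 ± 0.05 in KO2 and 0.02 ± 0.05 in the lines together. L3mbtl2, whose few counts lie on the strand of Chadl, held 6 and 9 counts (wild type), 13 and 17 (KO1) and 22 and 25 (KO2). Every knockout library of L3mbtl2 was above both wild type libraries, and KO2 above KO1. The log2 fold change was 0.92 ± 0.44 in KO1 and 1.62 ± 0.40 in KO2, on counts of at most 25.

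**Figure D2:**
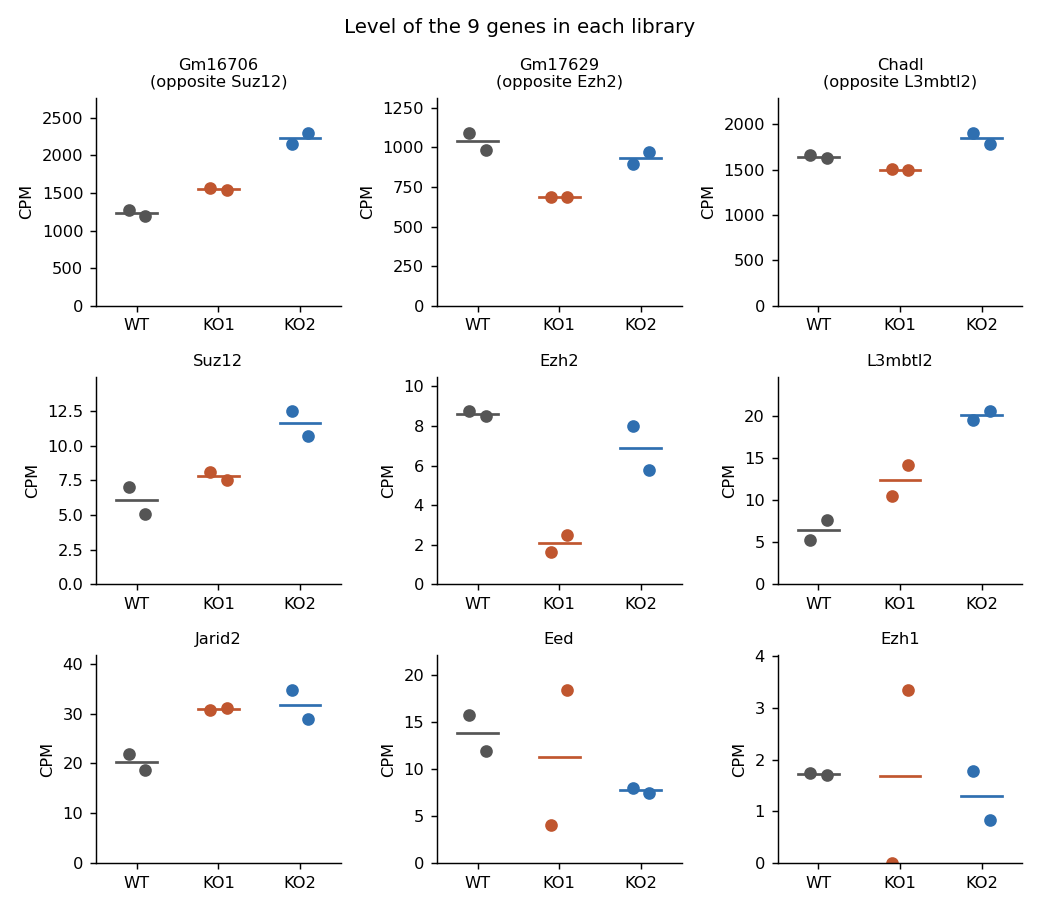
Level of each of the 9 genes in CPM (linear axis from 0, its own range in each panel); each point is a library and each line the mean of 2. Gm16706 climbs from wild type through KO1 to KO2, Gm17629 is lowest in KO1, and Chadl stays between 1497 and 1909 CPM.

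In the fit over all 5034 tested genes (edgeR's quasi-likelihood test, Benjamini-Hochberg adjusted p under 0.05), 3 of the 7 tested members were called in the lines together, Gm16706 and L3mbtl2 higher and Gm17629 lower. The fit called 6.62% of all tested genes in that comparison, 2.72% higher and 3.89% lower. In KO1, Gm16706 was called higher and Gm17629 lower, where 9.79% of all genes were called (3.46% higher, 6.34% lower). In KO2, Gm16706, L3mbtl2 and Chadl were called higher and none lower, where 8.98% of all genes were called (5.01% higher, 3.97% lower). Between the lines, Gm16706, Gm17629 and Chadl were called lower in KO1 than in KO2, where 19.3% of all genes were called (7.93% higher, 11.4% lower). Since the members were chosen with such calls in view, nothing is read from these counts. The call of L3mbtl2 in the lines together was lost with no filter on low counts and without wild type replicate 1 or 2, KO1 replicate 2 or KO2 replicate 2 (log2 fold change 1.04 to 1.58), and in KO2 without wild type replicate 1 (1.39). DESeq2 gave no adjusted p for L3mbtl2. The KO2 call of Chadl was lost in 9 of 13 alternatives, without wild type replicate 1 or 2, KO1 replicate 1 or 2 or KO2 replicate 1 among them.

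Levels can be set beside each other only per length of exon. Averaged over the 6 libraries, Gm16706 stood at 468 CPM per kb, Gm17629 at 349 and Chadl at 335. Gm16706 and Gm17629 lie wholly inside their hosts, whereas several Chadl exons lie beyond the annotated end of L3mbtl2. Read as levels of the Polycomb genes, the Chadl value is therefore not like for like with the other 2. Gm16706 was highest in KO1 (434) and KO2 (623), while in wild type Gm17629 was highest (409, against 346 for Gm16706 and 331 for Chadl). Gm17629 and Chadl were not separated, with libraries of 270 to 431 and 301 to 384 CPM per kb. The other 6 genes followed far below, from Eed at 4.93, Jarid2 at 2.85, L3mbtl2 at 2.18 and Suz12 at 1.72 to Ezh2 at 0.946 and Ezh1 at 0.211 CPM per kb. The ranges over libraries were 1.82 to 8.32, 1.93 to 3.58, 0.883 to 3.47, 1.03 to 2.52, 0.261 to 1.41 and 0 to 0.451 in that order. Each overlapped that of its neighbours, so the order between neighbours is not resolved. All libraries of Eed and Jarid2 lay above all those of Ezh2 and Ezh1, and those of L3mbtl2 and Suz12 above those of Ezh1.

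Suz12 and Ezh2 lie on the 2 chromosomes whose genes shifted as a whole, each in 1 line. The shift of a chromosome is its median log2 fold change, taken over tested genes, less the median of the whole genome. Chromosome 11, with 560 tested genes, stood at 0.41 in KO2 and 0.06 in KO1. Chromosome 6, with 259, stood at -0.42 in KO1 and -0.02 in KO2. The 18 other chromosomes with at least 20 tested genes ran from -0.07 to 0.08 in KO1 and from -0.12 to 0.05 in KO2. The Gm16706 value thus moves with its chromosome in KO2, and the Gm17629 value with its chromosome in KO1. No DNA measurement of the lines was analysed here, so whether chromosome dose has a part in these values was not tested.

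Measured from the median of chromosome 11, Gm16706 was still higher, by 0.26 in KO1 and 0.45 in KO2. Among the other 292 chromosome 11 genes of at least 20 CPM, 46 stood higher than Gm16706 in KO1 and 27 in KO2. When each chromosome was scaled on its own, Gm16706 was called in both lines, at 0.28 for KO1 and 0.45 for KO2. Measured from the median of chromosome 6, Gm17629 was lower by only -0.18 in KO1 and -0.13 in KO2. Among the other 135 chromosome 6 genes of at least 20 CPM, 44 stood lower than Gm17629 in KO1 and 57 in KO2. With each chromosome scaled on its own, Gm17629 was called in neither line, at -0.19 for KO1 and -0.13 for KO2, and its difference between the lines shrank from -0.45 to -0.05.

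**Figure D3:**
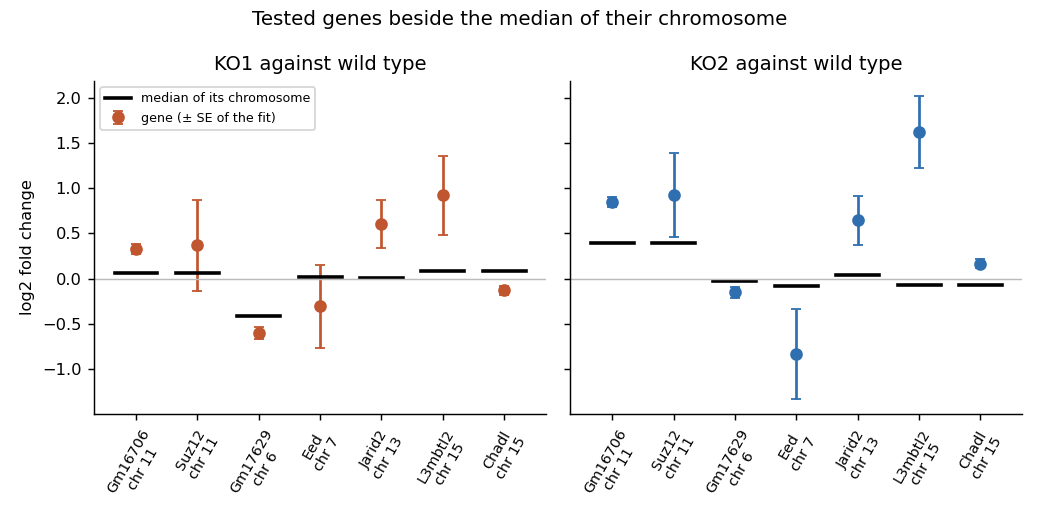
Log2 fold change over wild type of the 7 tested genes (points, ± SE of the fit) beside the median of all tested genes of the same chromosome (black bars), in KO1 and KO2. Gm16706 lies above its chromosome in both lines, whereas Gm17629 lies close under its chromosome in both.

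The shift was also seen in the surroundings of both genes. Within 5 Mb of the Suz12 start, 31 other genes of at least 20 CPM had a median log2 fold change of 0.38 in KO2, where 10 were called higher and 0 lower, and of -0.0024 in KO1, where 2 were called higher and 2 lower. Within 5 Mb of the Ezh2 start, 11 such genes had a median of -0.63 in KO1, where 0 were called higher and 7 lower, and of -0.13 in KO2, where 2 were called lower. Around L3mbtl2, 22 such genes had medians of -0.02 in KO1 and 0.03 in KO2. Over all tested genes of chromosome 11, 123 of 560 were called higher in KO2, against 5.01% of the genome. On chromosome 6, 64 of 259 were called lower in KO1, against 6.34%. The lowest value around Ezh2 in KO1, -1.74, was that of 2700086A05Rik, described below. On chromosomes 13 and 15, which hold Jarid2 and L3mbtl2, the shift was under 0.1 in size in both lines, so that Jarid2 and L3mbtl2 stood at nearly the same distance from their chromosome as from all genes (Jarid2 0.60 and 0.61, L3mbtl2 0.84 and 1.70). Chadl stood at -0.21 in KO1 and 0.24 in KO2 relative to chromosome 15.

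**Figure D4:**
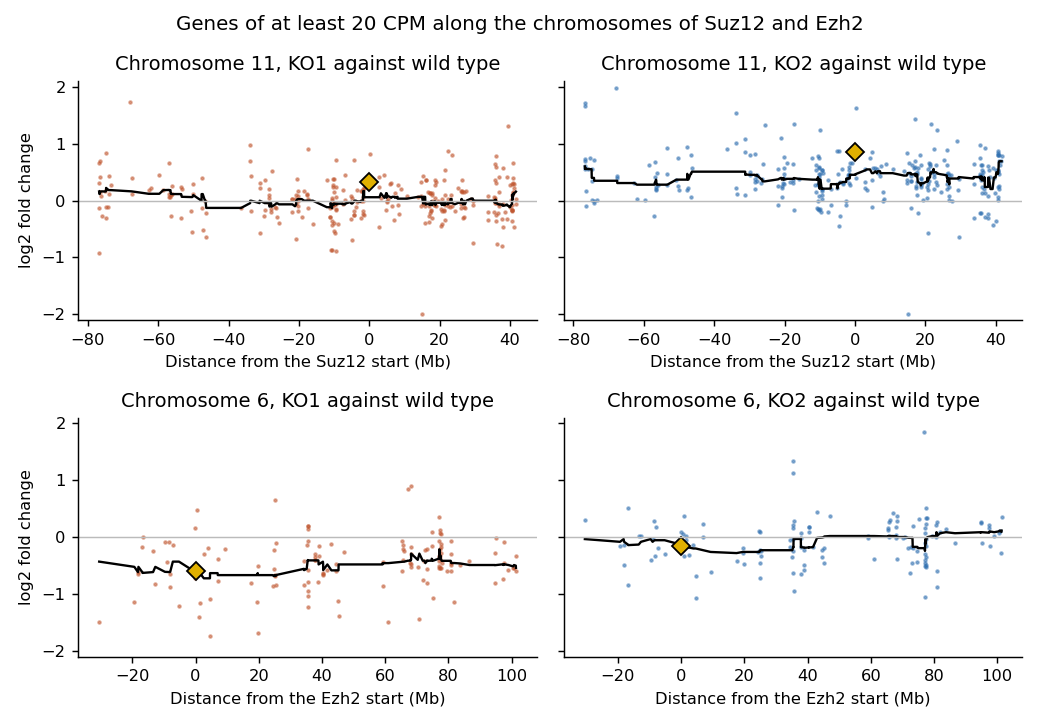
Log2 fold change of genes of at least 20 CPM (points, drawn at ± 2 where larger) against the distance from the Suz12 or Ezh2 start in Mb, with the running median of 21 genes (black) and Gm16706 or Gm17629 (yellow diamond). The running median lies above 0 along chromosome 11 in KO2 and below 0 along chromosome 6 in KO1.

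Of 58 other Polycomb genes found in the tables, 20 were tested under their own symbol and 10 counted genes opposite one of them were tested. In the lines together, edgeR called 1 of the 20 higher and 0 lower (1 at an unadjusted p under 0.05, 0 by DESeq2), and of the 10 opposite 0 higher and 1 lower (3 at an unadjusted p under 0.05, 0 by DESeq2), where 6.62% of all tested genes were called. Their median log2 fold changes were -0.08 and -0.05, against -0.01 over all tested genes. In KO1 the counts were 0 of 20 (2 at an unadjusted p under 0.05, 0 by DESeq2) and 1 lower of 10, against 9.79% of all tested genes. In KO2 they were 2 higher of 20 and 0 of 10 (2 at an unadjusted p under 0.05, 0 by DESeq2), against 8.98%. Between the lines, 1 of 20 was called higher and 2 lower in KO1 than in KO2, and 1 of 10 lower, against 19.3%. With so few genes tested, nothing particular to the list is read from these counts.

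Among core PRC2 genes, Rbbp4, which encodes a histone-binding subunit shared with deacetylase complexes, held 44 and 46 counts for wild type, 60 and 67 for KO1 and 73 and 103 for KO2. Its groups did not overlap. The log2 fold change of Rbbp4 was 0.69 ± 0.18 in the lines together (edgeR adjusted p 0.0152, DESeq2 adjusted p 0.155), 0.95 ± 0.20 in KO2 (edgeR adjusted p 0.00149) and 0.43 ± 0.21 in KO1 (edgeR adjusted p 0.231). The call in the lines together was lost without wild type replicate 1 or 2 and without KO1 replicate 2. Those counts lie on the strand of Gm17525 and Sync. Gm17525, opposite Rbbp4 and so read as Rbbp4, stood at 1365 ± 128 CPM (wild type), 1295 ± 43.6 (KO1) and 1381 ± 40.3 (KO2), with log2 fold changes of -0.08 ± 0.06 and 0.02 ± 0.06. Sync, also opposite Rbbp4, was called in neither line, at 0.11 ± 0.19 for KO1 and 0.44 ± 0.19 for KO2.

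Among accessory subunits, Tmed5, opposite the PRC2 recruiter gene Mtf2, held 1725 and 1708 counts (wild type), 1807 and 1719 (KO1) and 1551 and 1669 (KO2). No change of Tmed5 was called, at -0.03 ± 0.05 in KO1 and -0.10 ± 0.05 in KO2. E130012A19Rik, a gene on chromosome 11 known to encode a PRC2-binding protein, held 154 and 155 counts for wild type, 142 and 143 for KO1 and 230 and 201 for KO2. Under the strand reading above, counts listed under E130012A19Rik, Phf1, Lcorl, Hoxc13 and Eomes come from the strand opposite to these genes. The E130012A19Rik count rose in KO2 by 0.47 ± 0.12 (edgeR adjusted p 0.0131), and the log2 difference of KO1 from KO2 was -0.66 ± 0.13 (edgeR adjusted p 2.76e-04). With each chromosome scaled on its own both calls were lost, at 0.07 (edgeR adjusted p 0.814) and -0.30 (edgeR adjusted p 0.0980), and the KO2 call was also lost by DESeq2 and without KO2 replicate 1. Phf1, a reader of H3K36me3 that binds PRC2, held 12 and 17 counts (wild type), 22 and 20 (KO1) and 9 and 6 (KO2). Phf1 differed between the lines (1.41 ± 0.41, edgeR adjusted p 0.0147) but was called against wild type in neither. That call was lost without KO1 replicate 1 or 2 and without KO2 replicate 2, and DESeq2 gave no adjusted p for Phf1.

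On the side that removes H3K27 methylation, 1700064E03Rik, opposite the demethylase gene Kdm6b on chromosome 11, held 318 and 326 counts for wild type, 242 and 256 for KO1 and 271 and 312 for KO2. It fell in KO1 (-0.44 ± 0.10, edgeR adjusted p 0.00263), and stood at -0.15 ± 0.10 in KO2 (edgeR adjusted p 0.364). Against its own chromosome the KO2 value became -0.55 (edgeR adjusted p 1.42e-04). In the lines together it was -0.30 ± 0.08 (edgeR adjusted p 0.0250, DESeq2 adjusted p 0.261), a call lost without wild type replicate 1 or 2, KO1 replicate 1 or KO2 replicate 1. The KO1 call was lost without KO1 replicate 1. Among genes not called, Lcorl was at 491 CPM over all libraries with changes of -0.01 ± 0.08 and -0.15 ± 0.08, and AC156026.1 opposite Usp7 at 220 CPM with -0.14 ± 0.13 and -0.08 ± 0.13.

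**Figure D5:**
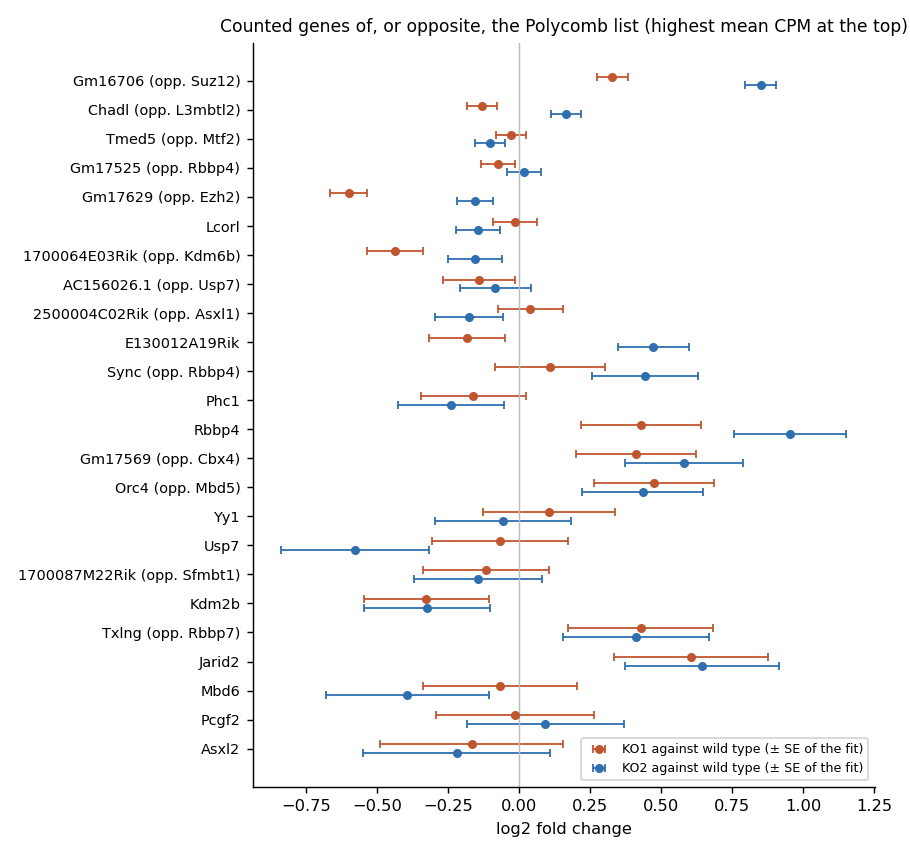
Log2 fold change over wild type in KO1 (orange) and KO2 (blue), ± SE of the fit, for Polycomb list entries. The 24 tested entries with the highest mean CPM are shown. Entries counted opposite a list gene carry that gene in brackets, and those without brackets are list genes counted under their own symbol. Gm16706 in KO2 and Gm17629 in KO1 lie far from 0 with small errors, and the abundant entries Tmed5 and Gm17525 lie near 0.

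Genes known to carry H3K27me3 in ES cells were rarely measured. Of 70 such genes in the list, 6 were tested under their own symbol, and 3 counted genes opposite one were tested. In the lines together edgeR called 0 of the 6 (1 at an unadjusted p under 0.05, 0 by DESeq2), and 2 of the 3 lower, where 6.62% of all tested genes were called and 3.89% lower. With so few genes tested, nothing particular to these targets is read from these counts. One of the 2 called lower was 2700086A05Rik on chromosome 6, opposite Hoxa3 and Hoxa7. On chromosome 6, 44 of 259 tested genes were called lower in the lines together, at a shift of -0.26. The counts of 2700086A05Rik were 55 and 60 (wild type), 16 and 20 (KO1) and 25 and 30 (KO2). 2700086A05Rik fell in KO1 (-1.74 ± 0.26, edgeR adjusted p 2.24e-05) and in KO2 (-1.07 ± 0.24, edgeR adjusted p 0.00288), and with each chromosome scaled on its own the values were -1.32 and -1.05. The KO2 call was lost by DESeq2 (adjusted p 0.0964). Hoxc13 was called lower in KO1 (-0.61 ± 0.20, edgeR adjusted p 0.0469), a call lost when any wild type or KO1 library was left out. The Hoxc13 call was also lost by DESeq2 (adjusted p 0.355), with no filter, without AY036118 and when fitting only the groups compared. Eomes stood lower in KO1 than in KO2 (-1.39 ± 0.47, edgeR adjusted p 0.0377). Gm2301 opposite Tbx3, at a mean of 545 CPM, stood higher in KO1 than in KO2 (0.27 ± 0.07, edgeR adjusted p 0.00840). Both of these calls were lost without KO1 replicate 1 or 2 or KO2 replicate 1, and with no filter on low counts. DESeq2 did not call Gm2301 there (adjusted p 0.0900) and gave no adjusted p for Eomes.

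The genes most like the members in pattern were taken as those with the highest Pearson correlation of log2 CPM over the 6 libraries, among genes of at least 20 CPM. With 6 libraries in 3 groups such correlations are high by construction, and they are given as a description. For Gm16706, among 2555 genes, they were 4930405P13Rik (opposite Scpep1, chromosome 11, r = 0.996), B230206H07Rik (opposite Eps8l2, chromosome 7, r = 0.996) and Gm15622 (opposite Bhmt, chromosome 13, r = 0.995). Of the 20 genes most like Gm16706, 11 lie on chromosome 11, which holds 292 of the 2555 compared. For Gm17629 they were Gm17089 (opposite Etv6, chromosome 6, r = 0.999), Lefty2 (chromosome 1, r = 0.994) and Gm17080 (opposite Slc29a1, chromosome 17, r = 0.991). Of the 20 most like Gm17629, 4 lie on chromosome 6, which holds 135 of the 2555 compared. For L3mbtl2 they were Tubb5 (r = 0.982), Slc16a3 (opposite Csnk1d, r = 0.978) and Gm17722 (r = 0.973), and 0 of the 20 lie on chromosome 15.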

How the data were processed

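RNA was measured in 6 libraries, 2 each of wild type, KO1 and KO2; the 44 chromatin samples of the series were not analysed here. The deposited values are raw counts per gene. The authors made them with featureCounts 2.0.1 on read pairs, summing exons by gene with strand setting 1 (per the file headers), from a GENCODE mouse version 1 gene set built on mm9. Trim Galore 0.6.4 and STAR 2.5.4b are named, with no role given, per the submitters' processing notes. Spans and strands of all 37310 genes equalled that annotation, which supplied the symbols. A gene was taken as opposite when it shared at least 50 exonic bases on the other strand (bedtools 2.31.1).

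Counts were fitted in R 4.3.3 with edgeR 4.0.16 (filterByExpr with a minimum count of 10, TMM, robust quasi-likelihood, a mean for each of 3 groups, 3 residual degrees of freedom). Libraries of a group differed beyond counting noise. The steps were tested on simulated counts. Alternatives were DESeq2 1.42.0, RLE size factors, no filter, the ribosomal RNA locus AY036118 left out, only the groups compared, a replicate block, each chromosome scaled on its own, and each library left out. The members, the lists and the rule for named genes (all members, called list genes, up to 4 abundant uncalled ones, and the 3 genes most like Gm16706, Gm17629 and L3mbtl2) were chosen with earlier results of these data known. One exon sequence and one list gene with its result are not reported here.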

Additional observations from a re-analysis of the deposited data

Results flagged for a closer look

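Between the 2 knockout lines, 3 members were called in the fit over all genes (edgeR, Benjamini-Hochberg adjusted p under 0.05), where 19.3% of all tested genes were called. Since the members were chosen by fold changes in these libraries, the differences are a description. The log2 difference of KO1 from KO2 was -0.52 ± 0.05 for Gm16706, -0.45 ± 0.07 for Gm17629 and -0.30 ± 0.05 for Chadl. The chromosomes of Gm16706 and Gm17629 differed between the lines by -0.33 and -0.43, that of Chadl by 0.14. With each chromosome scaled on its own, the difference was -0.17 for Gm16706, still called, and -0.05 for Gm17629, not called. That of Chadl grew to -0.41, still called, and under that scaling Chadl was also called lower in KO1 than in wild type (-0.22).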

How the results depend on the processing

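Gm16706 kept its direction and its calls in all alternatives. Gm17629 lost its calls only with each chromosome scaled on its own, which gave -0.16 in the lines together and -0.19 in KO1, and 0.37 and 0.45 for Gm16706 in the lines together and in KO2. DESeq2 called 115 genes in the lines together, 207 in KO1, 170 in KO2 and 417 between the lines, against 333, 493, 452 and 971 by edgeR. With 1 library left out, a group of 1 is assumed to vary like the others; the calls then ran from 213 to 362, 280 to 591, 328 to 435 and 561 to 1065. Gm16706 ran from 0.55 to 0.64 in the lines together, 0.28 to 0.37 in KO1 and 0.81 to 0.92 in KO2, Gm17629 from -0.44 to -0.30, -0.67 to -0.52 and -0.21 to -0.066, and L3mbtl2 from 1.04 to 1.58, 0.68 to 1.22 and 1.39 to 1.93. Fitting only the groups compared could not apply to the lines together. Suz12, Ezh2, Ezh1, Eed and L3mbtl2 rest on at most 25 counts per library, which limits what can be told of them.

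Of Polycomb genes by own symbol, DESeq2 called 0 in the lines together, 1 in KO2 and 1 between the lines, and chromosome scaling left 1 in KO2. Of genes opposite one, DESeq2 called 0 in the lines together and 0 between the lines, chromosome scaling gave 1 in KO2 and 0 between the lines, and no filter or only the groups compared gave 0 between the lines. Of Polycomb targets by own symbol, DESeq2 and no filter each called 0 in KO1 and 0 between the lines, and leaving out AY036118 or fitting only the groups compared called 0 in KO1. Of genes opposite a target, DESeq2 called 1 in the lines together, 1 in KO1, 0 in KO2 and 0 between the lines, chromosome scaling called 1 in the lines together, and no filter 0 between the lines. With 1 library left out, Polycomb counts by own symbol ran from 0 to 1 in the lines together and 1 to 4 between the lines. Those of genes opposite ran from 0 to 2 in the lines together and 0 to 1 in KO1, in KO2 and between the lines. Target counts by own symbol ran from 0 to 1 in KO1 and between the lines, and those of genes opposite from 1 to 2 in the lines together, 1 to 3 in KO1 and 0 to 1 between the lines. The cause of these changes was not tested.

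The libraries carry replicate numbers, but same-numbered libraries did not deviate together (correlations of 0.01, -0.01 and -0.04), so the numbers were not taken to pair them. With the replicate block, 321 genes were called in the lines together, 482 in KO1, 416 in KO2 and 935 between the lines. Under that replicate block Gm16706 stood at 0.59 in the lines together, Gm17629 at -0.38 and L3mbtl2 at 1.27, and of the members' calls only that of Chadl in KO2 was lost (0.16).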
